A study of Mus musculus with 6 samples.

Results

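Slc6a19, the gene for the neutral amino acid transporter B0AT1, was examined together with 9 amino acid transporter genes of T cells, Slc7a5, Slc3a2, Slc1a5, Slc38a1, Slc38a2, Slc7a6, Slc7a1, Slc43a2 and Slc6a6, in sorted CD8 T cells of WT and BIT mice. The 10 genes were found by symbol among the 78275 genes of the deposited table, and all 10 were among the 16105 genes that passed the filter on low counts. Slc6a19 was selected on its counts in these libraries, which differed between WT and BIT mice, so its values are given as a description with no test. The other 9 genes were listed for their role in T cells, and their tests are read from the fit over all genes. BIT mice are homozygous for an allele in which the sequence of Psmb11, which encodes the thymoproteasome subunit β5t, takes the place of Psmb8, which encodes the immunoproteasome subunit β5i, so that the cells that normally assemble immunoproteasomes assemble thymoproteasomes. The replacement is in the germline and not restricted to T cells, and the T cells of BIT mice therefore also developed in an animal with altered proteasomes in its other tissues. RNA was taken from TCRβ-high CD4-CD8+ T cells of 3 WT and 3 BIT mice on the C57BL/6 background, 9 to 10 weeks old, with 1 library per mouse. The labels name no treatment and give lymph nodes as the tissue while the sorting protocol names lymph nodes and spleens. The study's methods name lymph nodes alone, and its text documents 1 of several BIT lines, BIT #1–2, unless it says otherwise.

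T cells take up amino acids through a small number of carriers that divide the work. B0AT1 is a sodium-dependent carrier of neutral amino acids best known from the brush border of the small intestine and the kidney proximal tubule, where collectrin (Cltrn) helps it to reach the cell surface in the kidney. In lymphocytes, glutamine enters through ASCT2 (Slc1a5) and the sodium-coupled carriers SNAT1 (Slc38a1) and SNAT2 (Slc38a2), and large neutral amino acids such as leucine enter through system L, whose main form in T cells pairs LAT1 (Slc7a5) with the heavy chain 4F2hc (Slc3a2) and exchanges them for intracellular glutamine. Leucine and arginine supply is read by the mTORC1 machinery on the lysosome, and lack of amino acids is read by the kinase GCN2, which raises translation of the transcription factor ATF4. T cell receptor stimulation is known to raise Slc7a5, Slc3a2 and Slc1a5 strongly.

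The libraries held between 37467678 and 52922675 estimated counts, so that 3 counts, the most that a count of 0 allows, correspond to 0.0567 to 0.0801 CPM (counts scaled to a fixed library total). Psmb8 had 8024 to 10790 counts in WT and 59 to 73 in BIT libraries, and Psmb11 had 0 in WT and 1226 to 1926 in BIT libraries. The library of WT replicate 3 had 66626 counts of Xist and 0 of the Y-linked Ddx3y, although the labels describe all mice as male. The other 5 libraries had 2 to 125 counts of Xist and 2958 to 4329 of Ddx3y. The 125 counts of Xist were in BIT replicate 3, and the next highest count was 9, in WT replicate 1. WT replicate 3 and BIT replicate 3 also stood apart on the first principal component, which held 34.4% of the variance. Their scores were 54.6 and 28.6, against -36.5 to -3.31 in the others. Results for Slc6a19 and over the other 9 members are therefore also given without these libraries. Those for lists, markers and neighbours are mostly from all 6 libraries. CD8 T cell markers (Cd3d, Cd3e, Cd3g, Cd8a, Cd8b1 and Lck) summed to 3670 to 4280 CPM in WT and 3760 to 4360 in BIT libraries, and CD4 T cell markers to 3.83 to 5.31 and 3.4 to 4.34 CPM.

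Slc6a19 (ENSMUSG00000021565.17) lies on the minus strand of chromosome 13 at chr13:73827860-73852984 (GRCm39), and its canonical transcript has 12 exons and 3940 bases. The 3 WT libraries held 1773, 1540 and 1525 estimated counts of Slc6a19, and the 3 BIT libraries held 693, 630 and 812. Every BIT library was below every WT library even before scaling to depth. After TMM normalization these were 34.0, 32.3 and 35.7 CPM in WT and 16.4, 15.1 and 20.3 CPM in BIT libraries. The WT mean was 34.0 ± 1.7 CPM (SD, n = 3) and the BIT mean 17.2 ± 2.7 CPM (SD, n = 3), so that BIT cells retained 50.7% of the WT level. On the quantile-normalized log2 scale the difference between BIT and WT was -1.0 (SE 0.129, 95% confidence interval -1.29 to -0.71), a 2.0-fold lower level in BIT. The interval is a description, not corrected for the selection of Slc6a19 on these counts. The groups were separated by a gap from 20.3 to 32.3 CPM, wider than the range within either group, and BIT replicate 3 was the highest of the BIT libraries. An absolute difference of this size or more was found in 4.09% of all genes tested.

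**Figure D1:**
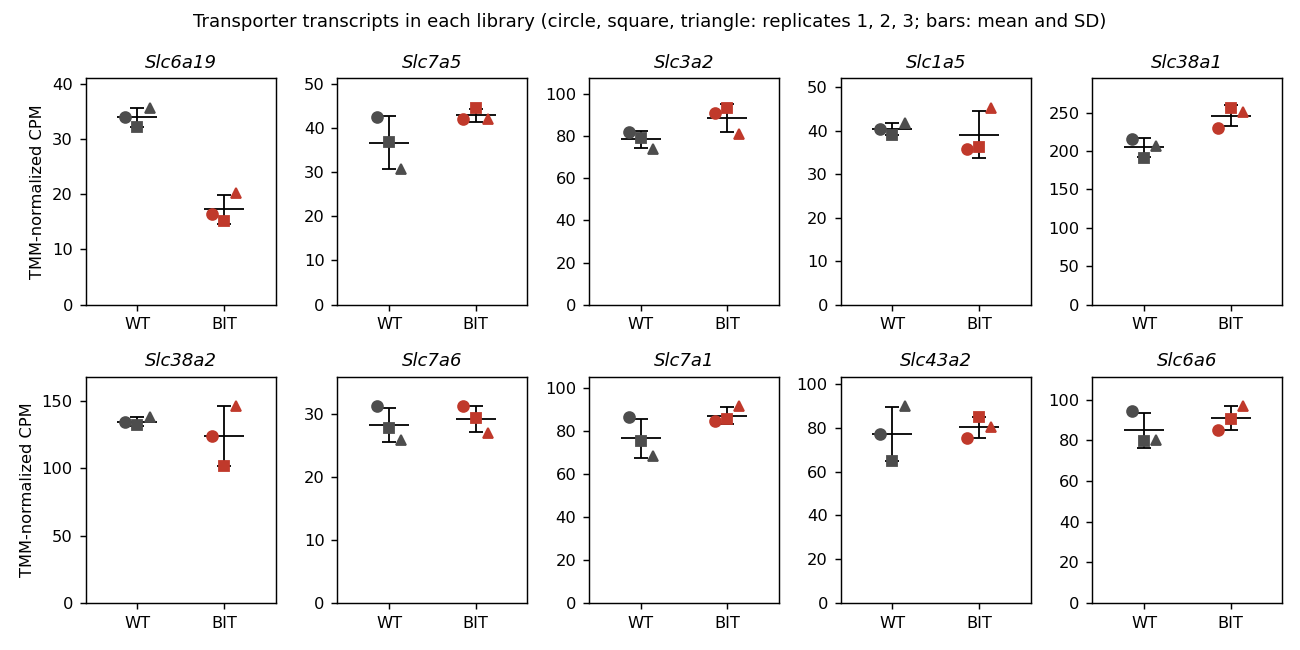
TMM-normalized CPM of the 10 transporter genes in each of 3 WT (grey) and 3 BIT (red) libraries on linear axes starting at 0, with the replicate given by the symbol and the mean and SD by black bars. Slc6a19 sat between 32.3 and 35.7 CPM in WT and between 15.1 and 20.3 CPM in BIT libraries, and in the other panels the groups overlapped except for Slc38a1.

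The Slc6a19 difference was present under every way of processing the counts that was tried. It lay between -1.13 and -0.90 on the log2 scale over 15 alternatives, with -1.13 without BIT replicate 3 and -0.90 without BIT replicate 2. Without the Xist-positive WT replicate 3 it was -0.95, and with only replicates 1 and 2 of each group it was -1.08. Relative to Slc1a5 in the same library, a scale that does not depend on library size, Slc6a19 had 0.84, 0.83 and 0.853 counts per count of Slc1a5 in WT and 0.459, 0.417 and 0.449 in BIT libraries. The means of this ratio were 0.841 ± 0.0118 in WT and 0.441 ± 0.0218 in BIT mice (SD, n = 3). The ratio and the 15 alternatives use the counts on which Slc6a19 was selected, so they add no separate support. Fewer cells that express Slc6a19 and less Slc6a19 RNA per cell cannot be told apart in bulk RNA.

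Transcripts of the tissues in which B0AT1 is best known were nearly absent. The kidney tubule and enterocyte markers Lrp2, Cubn, Slc34a1, Slc5a2, Vil1, Fabp2 and Slc5a1 reached at most 5 counts in any library, 3 of the 7 had no count, and together they came to 0.0419 to 0.187 CPM in WT and 0 to 0.0719 CPM in BIT libraries. Cltrn, a partner in surface transport of B0AT1, had 1, 1 and 4 counts in WT and 0 in each BIT library. Cltrn was thus at the limit of 3 counts or close to it and was not tested.

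Slc7a5, the gene for the light chain LAT1, was not distinguishable between the groups. It had 42.5, 36.9 and 30.6 CPM in WT and 42.0, 44.5 and 42.0 CPM in BIT libraries. WT replicate 1 was as high as the BIT libraries and WT replicate 3 was the lowest of all 6. The log2 difference was 0.20 (SE 0.109, 95% interval -0.051 to 0.44, limma adjusted p = 0.656), and without WT replicate 3 it was 0.096. Its heavy chain partner Slc3a2, which carries several light chains to the surface, had 82.2, 79.3 and 74.2 CPM in WT and 91.3, 93.5 and 81.1 CPM in BIT libraries. The highest WT library lay just above the lowest BIT library on this scale, while the groups did not overlap on the quantile-normalized scale. The difference was 0.12 (SE 0.078, 95% interval -0.053 to 0.30, limma adjusted p = 0.691). The ratio of Slc7a5 to Slc3a2 counts was 0.465 ± 0.0524 in WT and 0.485 ± 0.0305 in BIT mice (SD, n = 3), a difference smaller than the spread between mice. Snhg1, a non-coding gene on the opposite strand that overlaps Slc3a2, had 748 to 2383 counts. The study's methods name a stranded library kit, but the strand setting of the counting is not given. Part of the Slc3a2 reads may therefore not be separable from those of Snhg1.

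None of the glutamine carriers passed the test. Slc38a1 (SNAT1) had 216, 191 and 207 CPM in WT and 230, 256 and 251 CPM in BIT libraries, so that all BIT libraries were above all WT libraries on this scale. On the quantile-normalized scale its groups overlapped, and the log2 difference was 0.19 (SE 0.0872, 95% interval -0.0039 to 0.39, unadjusted p = 0.0538, adjusted p = 0.592 by limma). The exact two-sided permutation test on its CPM gave p = 0.1, the smallest value that 3 mice against 3 allow. Slc38a2 (SNAT2), a known target of ATF4, had 134, 132 and 138 CPM in WT and 124, 102 and 146 CPM in BIT libraries. The WT libraries were close together and the BIT libraries fell on both sides of them, and the difference was -0.19 (SE 0.13, 95% interval -0.48 to 0.11, limma adjusted p = 0.716). Without BIT replicate 3 the estimate for Slc38a2 was -0.33 (limma adjusted p = 0.34). Slc1a5 (ASCT2) had 40.4, 38.9 and 41.8 CPM in WT and 35.7, 36.2 and 45.2 CPM in BIT libraries, again with BIT replicate 3 above and the other BIT libraries below the WT range. Its difference was -0.093 (SE 0.118, 95% interval -0.36 to 0.17, limma adjusted p = 0.845), and it was -0.22 without BIT replicate 3 and -0.017 without BIT replicate 1. The ratio of Slc38a2 to Slc38a1 counts was 0.618, 0.693 and 0.666 in WT and 0.54, 0.398 and 0.58 in BIT libraries, and each BIT library was below each WT library. This ratio was computed after the values of both genes were seen and is given without a test.

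The carriers of cationic amino acids and the remaining members did not pass the test, and their groups overlapped. Slc7a1 (CAT1), the main arginine and lysine carrier of many cells, had 86.4, 75.3 and 68.3 CPM in WT and 84.6, 85.5 and 91.5 CPM in BIT libraries. WT replicate 1 lay within the BIT range, and the log2 difference was 0.14 (SE 0.0928, 95% interval -0.071 to 0.35, limma adjusted p = 0.703). Slc7a6 (y+LAT2), which pairs with 4F2hc and exchanges cationic for neutral amino acids, had 25.8 to 31.2 CPM in WT and 27.0 to 31.2 CPM in BIT libraries. The ranges of Slc7a6 nearly coincided, and its difference was 0.033 (95% interval -0.18 to 0.24, limma adjusted p = 0.939). Slc43a2 (LAT4), a carrier of large neutral amino acids that needs no sodium, had 65.1 to 89.9 CPM in WT and 75.3 to 85.1 CPM in BIT libraries, with a difference of 0.019 (95% interval -0.27 to 0.31, limma adjusted p = 0.972). The WT range of Slc43a2 contained all BIT libraries. The opposite-strand gene Gm45606, which overlaps Slc43a2, had 809 to 1059 counts, and reads of the pair may not be separable if the counting ignored strand. Slc6a6 (TauT), the taurine carrier and the only other member of the Slc6 family among the 10 genes, had 79.6 to 94.7 CPM in WT and 85.1 to 96.8 CPM in BIT libraries, with a difference of 0.05 (95% interval -0.16 to 0.26, limma adjusted p = 0.904).

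**Figure D2:**
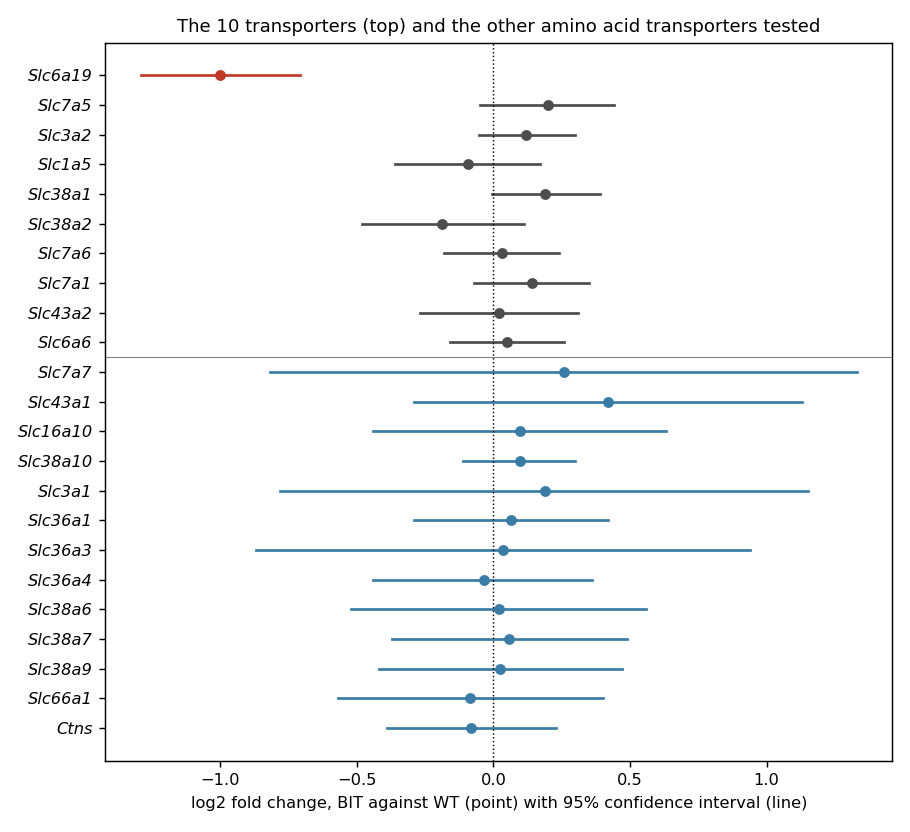
Log2 fold change between BIT and WT libraries (points, horizontal axis) with 95% confidence intervals (lines) for the 10 members (above the grey line, Slc6a19 in red) and the 13 other amino acid transporters tested (below it, blue). Slc6a19 was selected on these counts, and its interval, from -1.29 to -0.71, is drawn as a description. Those of the other 9 members and of the other transporters all include 0.

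Over the 9 members other than Slc6a19, none passed an adjusted p of 0.05 in limma, where 22 genes, 0.137% of all genes tested, did so, 13 of them higher and 9 lower in BIT. None passed with DESeq2 or with the quasi-likelihood test of edgeR, which called 0.776% and 0.0869% of all genes, and none had an unadjusted p below 0.05 in limma, against 8.57% of all genes. The groups did not overlap for 1 of the 9 genes on the quantile-normalized scale (Slc3a2; 13.3% of all genes) and for 1 on the TMM scale (Slc38a1; 13.7% of all genes). The estimates were higher in BIT for 7 and lower for 2 of the 9, with a median of 0.05 against 0.0118 over all genes tested, and their adjusted p-values ran from 0.592 to 0.972. Without WT replicate 3 the 9 estimates lay between -0.15 and 0.22, and with only replicates 1 and 2 of each group between -0.30 and 0.18, again with none passing. Together the 95% intervals of the 9 genes reached from -0.48 (Slc38a2) to 0.44 (Slc7a5).

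Levels of different genes were compared per kilobase of canonical transcript. Among WT libraries Slc3a2 was at 30.8 ± 1.59 CPM per kilobase, Slc38a1 at 28.8 ± 1.81 and Slc38a2 at 28.8 ± 0.641 (SD, n = 3), and these 3 could not be ordered because their libraries overlapped. Slc43a2 followed at 23.5 ± 3.77, and its libraries overlapped neither those of Slc38a2 above nor those of Slc1a5 below. They did overlap those of Slc38a1, at 19.8 to 27.3 against 26.8 to 30.4, so Slc43a2 was not set apart from Slc38a1. Slc1a5 was at 14.6 ± 0.527 and overlapped with Slc6a6 at 13.7 ± 1.37. In the lower part of the order Slc7a1 was at 10.5 ± 1.25, Slc7a5 at 10.4 ± 1.7, Slc6a19 at 8.62 ± 0.432 and Slc7a6 at 7.52 ± 0.737, with overlap between each pair of neighbours. On this length the WT libraries of Slc6a19, at 8.19 to 9.05, overlapped those of Slc7a5 (LAT1), at 8.70 to 12.1. With the length of all merged exons they did not, at 6.44 to 7.12 against 7.97 to 11.1. In BIT libraries Slc6a19 was at 4.38 ± 0.686 CPM per kilobase, below every library of Slc7a6 at 7.77 ± 0.561, which made it the lowest of the 10. The order depends on which transcript is assumed. With the length of all merged exons Slc6a19 was in place 7 of 10 in WT, at 6.78 ± 0.34, and in place 10 in BIT libraries, at 3.44 ± 0.539, while Slc7a5 moved from place 8 to place 4 and Slc43a2 from place 4 to place 9.

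**Figure D3:**
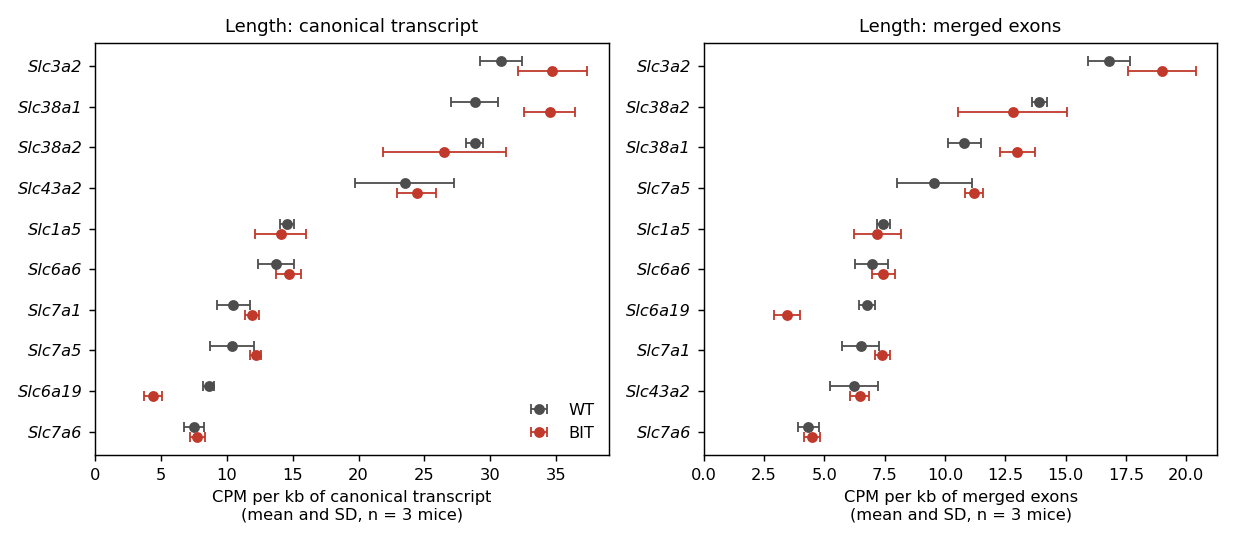
Mean CPM per kilobase with SD over 3 mice for the 10 genes in WT (grey) and BIT (red), using the canonical transcript (left) or all merged exons (right) as length, each panel sorted by the WT mean. Slc3a2 has the highest WT mean in both panels, the red points of Slc6a19 lie below the grey ones, at 4.38 against 8.62 on the left and 3.44 against 6.78 on the right, and those of Slc38a1 lie above them, at 34.5 against 28.8 and 13.0 against 10.8.

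Most of the other amino acid transporters on the lists had few or no counts in these cells. Of 7 partners and relatives of system L, 3 were tested, Slc16a10 (the aromatic amino acid carrier TAT1) at 10.9 ± 3.17 CPM in WT and 11.3 ± 1.37 in BIT mice, Slc43a1 at 1.10 ± 0.366 and 1.31 ± 0.387, and Slc7a7 at 0.348 ± 0.104 and 0.346 ± 0.0949 (SD, n = 3). Slc7a11, the cystine-glutamate exchanger that follows ATF4 in many cells, had 0 to 3 counts per library. Of 13 other glutamine and neutral amino acid carriers only Slc38a10 was tested, at 80.8 ± 5.54 CPM in WT and 89.7 ± 8.08 in BIT mice (log2 difference 0.097, limma adjusted p = 0.787), and Slc6a14, Slc6a15, Slc6a17 and Slc6a18 of the Slc6 family had no count at all. Of 8 other cationic and heteromeric carriers only Slc3a1 was tested, with 15 to 37 counts per library. None of the 9 glutamate, glycine and proline carriers passed the filter, and their highest count was 19. Of 9 lysosomal and proton-coupled carriers 8 were tested, including Slc38a9, the lysosomal arginine sensor of mTORC1, and their log2 differences lay between -0.086 and 0.066. Of the 13 genes tested in these 5 lists, 0 passed in limma, edgeR or DESeq2, and 0 had an unadjusted p below 0.05, where 0.137%, 0.0869%, 0.776% and 8.57% of all genes did so, in that order. DESeq2 gave no adjusted p for some of the 13 with few counts, such as Slc7a7 and Slc3a1, which therefore could not pass with it.

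The uptake of amino acids is read by mTORC1 and by GCN2 and ATF4, so the genes of both pathways were followed. The lists were set by function, with earlier results of these data known. Of 28 genes of the GCN2-ATF4 response, 21 were tested and 0 passed in limma, against 0.137% of all genes. Of their estimates 13 were higher and 8 lower, and the median was 0.079 against 0.0118 over all genes. An unadjusted p below 0.05 was found for 3 of the 21, all higher, against 8.57% of all genes. The groups did not overlap on the quantile-normalized scale for 4 of the 21, against 13.3% of all genes. Stc2 (stanniocalcin 2, a secreted glycoprotein induced under stress) had 49, 64 and 43 counts in WT and 114, 133 and 141 in BIT libraries, and all BIT libraries were above all WT libraries. Its log2 difference was 1.62 (SE 0.254), with an adjusted p of 0.0859 in limma and 0.000321 in DESeq2, and the adjusted p ranged from 0.000321 to 0.486 over the alternatives. The glycyl- and tryptophanyl-tRNA synthetase genes were past an unadjusted p of 0.05 only, as 8.57% of all genes were, Gars1 at 0.22 (SE 0.0936, limma adjusted p = 0.575) and Wars1 at 0.30 (SE 0.12, limma adjusted p = 0.559). Asns, the asparagine synthetase gene and a classical ATF4 target, had 5 to 9 counts in WT and 10 to 14 in BIT libraries and did not pass the filter.

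Of 33 genes of mTORC1 amino acid sensing, all were tested and 0 passed in limma, against 0.137% of all genes. Of their estimates 19 were higher and 14 lower, with a median of 0.042. An unadjusted p below 0.05 was found for 3 of the 33, all higher, where 8.57% of all genes had one, and the groups did not overlap on the quantile-normalized scale for 5 of the 33, where this held for 13.3% of all genes, so that neither count sets the list apart. Rragd, a Rag GTPase that brings mTORC1 to the lysosome, had 2.57, 2.35 and 2.06 CPM in WT and 3.19, 5.53 and 3.50 CPM in BIT libraries (log2 difference 0.84, SE 0.30, limma adjusted p = 0.535). Tsc2, an inhibitor of mTORC1, was at 45.0 ± 4.58 and 54.5 ± 1.68 CPM (log2 difference 0.24, limma adjusted p = 0.553), and the leucine sensor family gene Sesn3 was at 333 ± 23.7 and 403 ± 44 CPM (log2 difference 0.20, limma adjusted p = 0.582). The groups of these 3 genes did not overlap, but Rragd and Sesn3 were separated by less than the spread within BIT mice.

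Of 13 genes of T cell activation and MYC, which set the demand for amino acids, 0 passed in limma, against 0.137% of all genes. Of their estimates 5 were higher and 8 lower, and the median was -0.035. An unadjusted p below 0.05 was found for 3 of the 13, 1 higher and 2 lower, against 8.57% of all genes. The groups did not overlap on the quantile-normalized scale for 4 of the 13, against 13.3% of all genes. Both shares of the list were larger than those of all genes, which was not tested further. Irf4, a transcription factor that follows the strength of T cell receptor signals, was at 9.33, 9.72 and 8.94 CPM in WT and 7.62, 5.99 and 5.54 CPM in BIT libraries (log2 difference -0.53, SE 0.166, limma adjusted p = 0.508). Il2ra, the high-affinity interleukin 2 receptor chain, was at 2.78 ± 0.46 and 1.70 ± 0.0625 CPM (log2 difference -0.59, limma adjusted p = 0.547), and the glucose transporter gene Slc2a1 at 24.8 ± 2.44 and 29.1 ± 1.19 CPM (log2 difference 0.22, limma adjusted p = 0.57). Myc, which is known to drive Slc7a5 and Slc1a5 in activated T cells, was at 128 ± 20.1 CPM in WT and 153 ± 23.7 in BIT mice (log2 difference 0.21, limma adjusted p = 0.687).

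**Figure D4:**
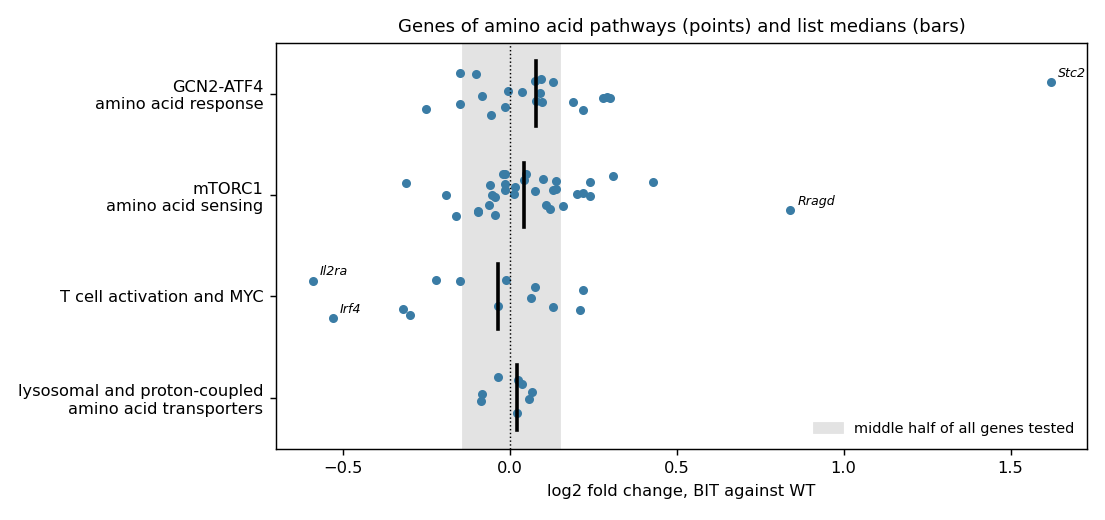
Log2 fold change between BIT and WT libraries (horizontal axis) of each tested gene of the 4 lists (points, with vertical scatter for legibility), the list medians (black bars) and the range between the quartiles of all genes tested, -0.14 to 0.15 (grey). The medians of 0.079, 0.042, -0.035 and 0.022 from top to bottom lie inside the grey range, and Stc2 at 1.62 and Rragd at 0.84 lie farthest to the right.

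Markers of other cells were followed because the sort could hold them. The 4 genes of the NK cell list (Ncr1, Klrb1c, Klre1 and Eomes) summed to 79.2 to 101 CPM in WT and 133 to 163 CPM in BIT libraries, and nearly all of this was Eomes, which memory CD8 T cells also express, at 84.9 ± 9.82 and 141 ± 14.4 CPM (log2 difference 0.69, adjusted p = 0.112 in limma and 5.12e-06 in DESeq2, and up to 0.582 over the alternatives). The defining NK receptor gene Ncr1 had 1 to 21 counts per library, with an estimate of -0.72. Klre1 had 0.958 to 3.09 CPM in WT and 2.38 to 3.71 CPM in BIT libraries, with an estimate of 1.04 (unadjusted p = 0.0111, adjusted p = 0.508 by limma), and Klrb1c had an estimate of 0.25. The 7 myeloid markers were all lower in estimate in BIT, with a median of -0.50, and summed to 22.4 to 52.4 CPM in WT and 17.5 to 25.5 CPM in BIT libraries, which overlap. B cell markers summed to 311 to 374 and 326 to 349 CPM, most of it Ighm, and the estimates of all 6 were lower in BIT, with a median of -0.31. The other lists came, in WT and BIT libraries, for stromal and endothelial markers to 105 to 113 and 98.3 to 102 CPM, most of it Pecam1, for γδ T cell markers to 4.58 to 6.73 and 4.55 to 5.92 CPM, and for erythroid markers to 2.29 to 13.7 and 6.02 to 48.4 CPM, with 4 of 4 erythroid estimates higher and a median of 1.26. Of the 6 stromal and endothelial genes 2 were tested, with estimates of 1.01 and -0.16, so they did not share a direction. The stromal sum, Eomes and Slc6a19 each separated the groups. Whether a different mixture of cells has a part in the Slc6a19 difference was not tested.

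The difference was next set beside the genes around Slc6a19 on chromosome 13. Within 250 kb of the gene 20 genes are annotated, Slc6a19 included, 12 had a count in any library, and 6 besides Slc6a19 were tested. None of the 6 passed an adjusted or an unadjusted p of 0.05 in limma. Of all genes 0.137% and 8.57% did so, so this count does not set the 6 apart. Their log2 differences lay between -0.13 (Brd9) and 0.23 (Tert). The groups of Clptm1l, higher in BIT by 0.14, did not overlap on the quantile-normalized scale, as held for 13.3% of all genes. The closest tested gene, Slc12a7 (a potassium-chloride cotransporter that begins 28.2 kb away), had 13413, 10472 and 12105 counts in WT and 9879, 10397 and 11250 in BIT libraries, with a log2 difference of -0.058 (SE 0.129). The ratio of Slc6a19 to Slc12a7 counts was 0.135 ± 0.0108 in WT and 0.0676 ± 0.00619 in BIT mice (SD, n = 3). It rests on the counts on which Slc6a19 was selected and is given as a description. Slc6a18, the neighbouring gene of the same family, had no count in any library. The antisense gene Slc6a19os, which overlaps Slc6a19, had 9, 12 and 7 counts in WT and 8, 2 and 3 in BIT libraries, against at least 630 counts of Slc6a19 in every library.

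**Figure D5:**
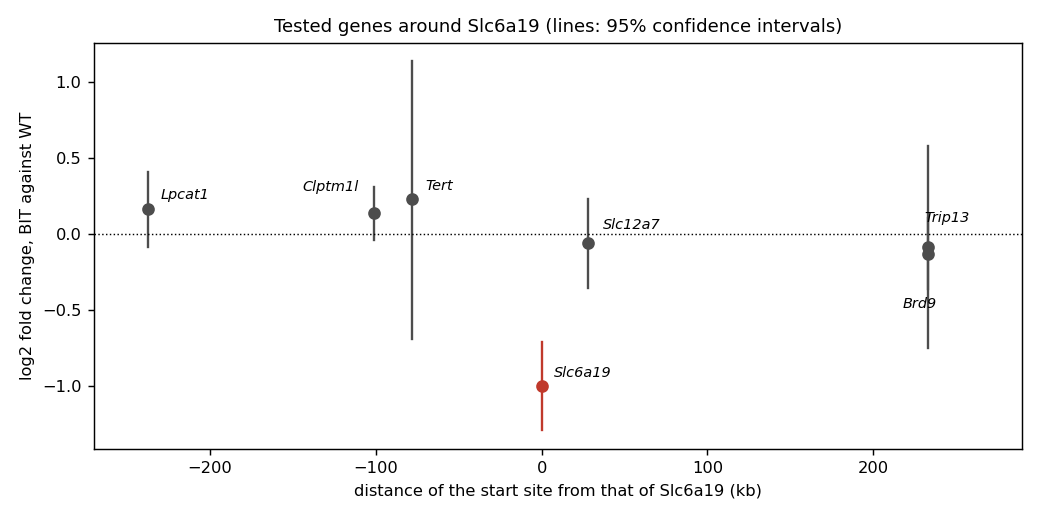
Log2 fold change between BIT and WT libraries (vertical axis, points with 95% confidence intervals) of the 7 tested genes within 250 kb of Slc6a19, against the distance of their start from that of Slc6a19 in kb. Slc6a19 (red), selected on these counts and drawn as a description, lies at -1.0. The 6 neighbours lie between -0.13 and 0.23, and their intervals include 0.

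The genes whose levels followed Slc6a19 most closely across the 6 libraries were 4930542N06Rik (Pearson r = 0.997), Dzip1 (0.996), Gria3 (0.993), Ctnnd2 (0.991) and Hnrnpd (0.989), and those that ran most opposite were Gm11532 (-0.996), Tln2 (-0.995), Trappc11 (-0.992), Tapbp (-0.99) and Surf1 (-0.989). These r values are descriptions over 6 libraries in 2 groups, chosen as extremes among all genes tested. All 10 of these genes separated WT from BIT libraries, against 13.3% of all genes. Their choice by likeness to Slc6a19 brings this with it, so nothing is read from it. Mean log2 CPM in WT and BIT was low for 4930542N06Rik (-1.16 and -2.57), Ctnnd2 (-0.69 and -1.36), Gm11532 (-2.31 and -1.23) and Tln2 (-1.54 and -0.27). Gria3, an AMPA receptor subunit gene, differed by -0.93 on the log2 scale, and Tapbp, which encodes the peptide-loading protein tapasin, was higher by 0.38. Among the members themselves r with Slc6a19 was -0.921 for Slc3a2, 0.71 for Slc38a2, -0.688 for Slc7a5 and -0.637 for Slc38a1, and between -0.524 and 0.569 for the other 5.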

How the data were processed

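The authors trimmed 100-bp paired reads of ribosomal RNA-depleted total RNA, aligned them to GRCm39 and deposited estimated counts per gene (RSEM, Gencode M38). Their methods name a stranded library kit. The submitters' processing notes list cutadapt 1.18, STAR 2.7.0f and RSEM 1.3.1, and the strand setting of the counting is not given in the sources used here. Of deposited values above 0, 84.8% were exactly whole. Estimated counts were rounded and tested with limma 3.58.1 (voom, quantile normalization, Benjamini-Hochberg adjustment) in R 4.3.3, with genotype as the only term, after filterByExpr (edgeR 4.0.16) had left 16105 genes. TMM-normalized CPM describe levels. DESeq2 1.42.0, edgeR, other filters and scalings, and fits without each library were alternatives, and the fits were tested on simulated data. Positions are from Gencode M39 (GRCm39), which held 78263 of 78275 identifiers. A sequence and a gene of the lists are not reported here.

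Members and lists were chosen with earlier results of these data known. Named were the 10 members, the genes of each list with the smallest p-values or highest levels, the neighbours of Slc6a19 and the genes most correlated with it; genes named outside that rule (Asns, Slc7a11, Slc38a9, Ncr1 and carriers without counts) were chosen after their values were seen. P-values measure the spread between mice, and limits set by a count of 0 cover counting error only. Tcrg-C1 was not matched.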

Additional observations from a re-analysis of the deposited data

How the results depend on the processing

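The estimate of Slc6a19 kept its direction under all 15 alternatives. The number of genes called was 22, and it was 14 with edgeR, 125 with DESeq2 and, when a library was left out, from 1 when this was WT replicate 1 to 37 when it was WT replicate 3. Settings chosen after seeing the data gave 42 with replicate 3 as a batch and 71 with replicates 1 and 2 alone. The only member called was Slc6a19, which was selected on these counts, so nothing is read from its call. The number of members called, 1, became 0 with no filter on low counts, and between 0 and 1 when a library was left out, with 0 without WT replicate 1, WT replicate 2, BIT replicate 1 or BIT replicate 2, and the cause was not tested. Among the other 9 members 0 were called under any alternative. With a library left out the estimates lay between -0.0047 and 0.092 for Slc7a6, -0.091 and 0.15 for Slc43a2 and -0.012 and 0.11 for Slc6a6, and the estimate turned negative for Slc7a6 in 2 (-0.0047 and -0.00094, without WT replicate 3 and BIT replicate 1), for Slc43a2 in 4 (-0.091 to -0.0031, each without 1 library) and for Slc6a6 in 3 of 15 alternatives (-0.013 with sample quality weights, -0.012 without BIT replicate 3 and -0.025 with replicates 1 and 2 alone). A replicate block left 21 genes called, but the numbers were not taken to pair the mice. Same-numbered libraries correlated by 0.139, 0.0255 and 0.332, and different-numbered libraries by -0.299 to 0.244. The highest value, 0.332, was that of the libraries numbered 3. These values do not settle whether the numbers pair the mice. Stc2 was called by DESeq2, with sample quality weights and with replicate 3 as a batch. Genes with few counts, such as Cltrn and Asns, could not be tested at this depth.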
